A study of Mus musculus with 18 samples.

Results

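The response of the wild-type (WT) mouse liver to asparaginase was taken from 6 of the 18 livers of the series, 3 from mice given asparaginase (ASNase) and 3 from mice given phosphate-buffered saline (PBS). All were C57BL/6J mice. ASNase was the native *Escherichia coli* enzyme Elspar at 3 IU per g body weight, injected into the peritoneal cavity once a day for 8 days, and PBS was injected on the same schedule. Livers were collected 7.5 h after the last injection according to the sample labels. The labels give the ages as 8 to 12 weeks in one place and 8 to 16 weeks in another. Of the WT PBS mice 1 of 3 was male, and of the WT ASNase mice 2 of 3 were male, so sex and treatment were not balanced. The other 12 livers came from *Gcn2*-/- and *Atf4*-/- mice given the same injections, and they enter only where the 3 strains are set side by side. The table holds 37303 genes, each with 1 FPKM value (a read level scaled for transcript length and for the mapped reads of a library) for each group of 3 livers, together with the lower and upper bound of its interval. A gene was compared when both WT values were above 0 with a status of OK and at least 1 of them exceeded 3 FPKM, which held for 9084 genes.

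Asparaginase cleaves circulating asparagine, and to a lesser extent glutamine, and is given to treat acute lymphoblastic leukemia, where liver toxicity limits its use. GCN2 is a protein kinase that senses uncharged tRNA and phosphorylates the translation factor eIF2, which slows general protein synthesis while favoring translation of the transcription factor ATF4. ATF4 binds C/EBP-ATF response elements in genes for amino acid synthesis, transport and stress signaling, among them asparagine synthetase, the pseudokinase *Trib3* and, in liver, the circulating hormone *Fgf21*.

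The mRNAs of both regulators were detected in the WT livers at levels that the treatment did not move beyond error. *Eif2ak4*, which encodes GCN2, was at 3.04 FPKM with bounds of 0.268 and 5.82 after PBS and at 2.39 FPKM with bounds of 0.75 and 4.04 after ASNase. In *Gcn2*-/- livers the same transcript was listed at 2.31 FPKM after PBS and 2.96 FPKM after ASNase, so its level in this table does not mark the deletion. *Atf4* mRNA was at 50.4 FPKM (29.7 to 71.1) after PBS and 63.1 FPKM (36.4 to 89.8) after ASNase in WT livers. In *Atf4*-/- livers it was at 32.3 FPKM after PBS and 29.3 FPKM after ASNase. The study reports *Atf4* as absent in these mice from read density plots, and it also measured *Atf4* by RT-qPCR. The level given here thus does not mark the deletion either.

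The differences between the WT groups are given as log2 of ASNase over PBS after adding 0.1 FPKM to each value. The ± beside a log2 difference is the root of the summed squares of the log2 distances from both values to their upper bounds. Values of single livers were not used here. The bounds are therefore the measure of error, no test between livers is given, and it cannot be seen from the table whether a group value comes from 1 liver or from all 3. The median distance from a value above 3 FPKM to its upper bound was 51.8% of the value after PBS and 52.5% after ASNase. FPKM values carry no read depth. The read totals of the libraries, which the study gives, were not used here, and the fragments behind a value were not worked out.

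Most genes differed little. The median log2 difference over the compared genes was −0.01, with 4453 higher and 4631 lower after ASNase, and 88.5% of them differed by less than 0.5 in either direction. A gene is called here when its log2 difference exceeded 1.5 in size and the 2 intervals were separate. This held for 80 genes, or 0.881% of those compared, with 69 higher after ASNase (0.760%) and 11 lower (0.121%). A further 54 genes passed the fold limit with overlapping intervals. A gene of any fold is said to lie beyond the combined error when its difference in FPKM exceeded the root of the summed squares of the facing distances to the bounds. That held for 151 genes (1.66%), 98 higher (1.08%) and 53 lower (0.583%), which include all 80 called genes. Genes are said to have risen or fallen only when they met 1 of these rules.

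**Figure D1:**
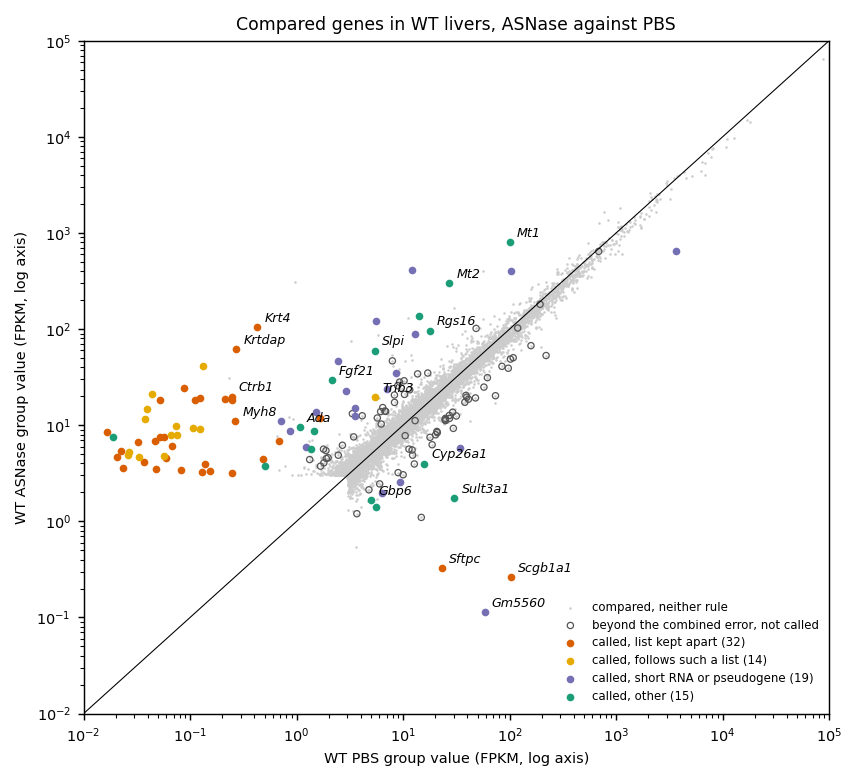
Each point is 1 of the 9084 compared genes, with its WT PBS value in FPKM on the horizontal and its WT ASNase value on the vertical axis, both log axes, and the line marks equal values. The called genes are filled by kind (32 of the kept apart lists, 14 that follow them, 19 short RNAs or pseudogenes and 15 others), open circles lie beyond the combined error only, and most kept apart genes sit at the left, below 1 FPKM after PBS.

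Many of the called genes belong to lists of tissues other than liver. Genes of skeletal muscle, squamous epithelium, lung epithelium and exocrine pancreas were kept apart from the rest, as were genes whose level over the 6 groups of the series followed the mean log2 level of 1 of these lists with a correlation above 0.95. The lists held 32 of the 80 called genes, and 14 more followed one. This correlation is a description over 6 values that include both WT groups, so a gene high in WT ASNase alone follows any list that is high there, and it does not show where a gene was expressed. Short noncoding RNAs made up 15, pseudogenes 4, and 15 genes were of no such kind, 11 higher and 4 lower. Gene function is described first, from those 15 genes and the 71 of no such kind beyond the combined error, which include them. The lists to which they belong are described too. Being of no such kind does not show expression in liver cells, which was not tested. Among the 15 were *Star*, on the adrenal cortex list, and the epithelial keratin *Krt23*.

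*Fgf21*, a hormone that liver releases in nutrient stress, showed the largest log2 rise of the genes on the lists of function other than *Mt4*. It was at 2.14 FPKM (0.434 to 3.85) after PBS and 29.3 FPKM (14.6 to 43.9) after ASNase, 13.7-fold higher (log2 difference 3.71 ± 1.0). It lies at chr7:45613886-45615490 on the minus strand of GRCm38. *Trib3*, which binds and inhibits the kinase AKT, rose from 5.46 FPKM (2.80 to 8.13) to 19.5 FPKM (11.4 to 27.7), 3.57-fold (log2 1.82 ± 0.76). For both genes the PBS and ASNase intervals were separate. *Trib3* also followed the pancreas list over the 6 groups, with its highest value, 150 FPKM, in the *Atf4*-/- ASNase group, and it is counted with that list among the called genes. These 2 were the only members beyond the combined error among the 28 compared genes of the amino acid response list. Members above 3 FPKM in just 1 group have their direction set by that limit, so the direction of a list is given here over members above it in both groups. For the amino acid response these were 20 genes, 16 higher and 4 lower, with a median log2 difference of 0.35 beside −0.01 over all compared genes.

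The other members with large differences stayed within their error. *Asns*, which makes asparagine from aspartate, was at 2.50 FPKM (0 to 6.93) after PBS and 8.13 FPKM (1.97 to 14.3) after ASNase. *Psat1*, an enzyme of serine synthesis, was at 0.774 FPKM (0 to 1.80) and 3.73 FPKM (0.512 to 6.96). The stress-induced regulators *Nupr1* and *Atf3* were at 1.69 and 1.37 FPKM after PBS and at 4.57 and 3.14 FPKM after ASNase. For each of these 4 genes the 2 intervals overlapped. The aminoacyl-tRNA synthetases, several of which are known ATF4 targets, had a median of 0.01 over 20 compared genes, with none beyond the combined error.

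The stretches before the transcription starts of *Fgf21* and *Asns* are shown because the lead gene of the response and the gene that defines it both hold a match to the C/EBP-ATF response element, searched as TGATGNAAN on both strands. The bases are those of RefSeq on GRCm38.p6, 250 before each start and read along the gene's strand, and capitals mark the match. The coordinates are chr7:45615491-45615740 and chr6:7693210-7693459, both on the minus strand.
Fgf21: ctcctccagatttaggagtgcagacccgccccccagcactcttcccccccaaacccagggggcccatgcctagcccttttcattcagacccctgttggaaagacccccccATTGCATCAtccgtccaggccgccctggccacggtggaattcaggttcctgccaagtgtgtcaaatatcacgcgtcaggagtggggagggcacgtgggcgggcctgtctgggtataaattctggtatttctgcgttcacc
Asns: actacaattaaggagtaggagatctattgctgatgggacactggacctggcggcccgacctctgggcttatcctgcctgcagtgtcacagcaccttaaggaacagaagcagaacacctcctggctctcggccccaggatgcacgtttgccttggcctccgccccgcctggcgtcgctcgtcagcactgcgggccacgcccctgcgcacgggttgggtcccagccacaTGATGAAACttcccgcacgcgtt
The match began 140 bases before the *Fgf21* start and 23 bases before the *Asns* start. Over 32851 promoter windows of this length, 3.44% held a match, and 7 of the 26 amino acid response genes with a window did. The window of *Trib3* held none. A match describes letters and not binding.

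Of the metallothioneins, small cysteine-rich proteins that bind zinc and copper, *Mt1* and *Mt2* rose together. *Mt2* was at 27.0 FPKM (12.4 to 41.7) after PBS and 300 FPKM (107 to 494) after ASNase, 11.1-fold higher (log2 3.47 ± 0.95). *Mt1* was at 100 FPKM (54.3 to 146) and 798 FPKM (214 to 1383), 7.95-fold higher (log2 2.99 ± 0.96). They are neighbors at chr8:94172664-94173568 and chr8:94179082-94180327 on GRCm38. *Mt4*, a metallothionein of stratified epithelium, was at 0.134 FPKM after PBS and 41.6 FPKM after ASNase, and it followed the squamous list. Zinc carriers on the same list stayed within error, with the exporter *Slc30a1* at 6.59 and 9.01 FPKM and the importer *Slc39a14* at 50 and 72.4 FPKM. The list's median over 19 compared genes was 0.01. The rise was thus that of *Mt1* and *Mt2*, with *Mt4* counted with the squamous list, and not of the whole list. The stretch before *Mt2* (chr8:94172368-94172617, plus strand, RefSeq on GRCm38.p6) is shown for its repeated matches to the metal response element core, TGCNCNC on either strand, in capitals.
Mt2: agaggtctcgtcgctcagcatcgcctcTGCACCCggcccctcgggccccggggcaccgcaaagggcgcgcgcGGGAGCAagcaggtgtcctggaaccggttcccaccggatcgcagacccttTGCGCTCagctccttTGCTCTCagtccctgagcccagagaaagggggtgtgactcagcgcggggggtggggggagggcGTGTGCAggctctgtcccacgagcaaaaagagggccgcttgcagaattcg
It held 5 matches, a number reached by 0.344% of windows, although 44.4% of windows held at least 1 match to this short motif. The *Mt1* window held 1, and bases after the start that RefSeq gives for *Mt1* were not searched.

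Some further called genes of no kept apart kind are named, most of them on no list. *Slpi*, a secreted inhibitor of neutrophil elastase, rose from 5.47 FPKM (1.4 to 9.55) to 59.6 FPKM (24.5 to 94.8), 10.9-fold (log2 3.42 ± 1.04). It was the only 1 of 26 compared acute phase genes beyond the combined error. The others lay mostly lower, with a list median of −0.21 and *Orm2*, an acid glycoprotein, at 31.6 FPKM after PBS and 18.5 FPKM after ASNase. *Ada*, which deaminates adenosine to inosine, rose from 1.07 FPKM (0.286 to 1.86) to 9.51 FPKM (4.53 to 14.5). *Rgs16*, a GTPase activator that shortens G-protein signals, rose 5.40-fold, from 17.8 FPKM (8.56 to 27.0) to 95.9 FPKM (47.4 to 144). *Slpi*, *Ada* and *Rgs16* were each above 1 FPKM after PBS, and the tissue in which they were expressed was not tested. *Krt23*, an epithelial keratin, rose from 1.47 to 8.79 FPKM (log2 2.50 ± 0.96), and *Dsg1c*, a desmosomal cadherin, from 1.37 to 5.72 FPKM (log2 1.98 ± 0.85). *Serpinb3a*, a serpin of the squamous antigen family, was at 0.0187 FPKM after PBS and 7.61 FPKM after ASNase, and it is on no list and followed none.

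Of the 4 called genes that fell, *Sult3a1*, a sulfotransferase that is higher in female liver, fell the most. It was at 30.2 FPKM (14.1 to 46.3) after PBS and 1.73 FPKM (0.222 to 3.24) after ASNase, 17.5-fold lower (log2 −4.05 ± 1.06). *Cyp26a1*, which degrades retinoic acid and is itself induced by it, fell 3.96-fold, from 15.7 FPKM (8.45 to 23) to 3.97 FPKM (1.87 to 6.08). The other two were the guanylate-binding proteins *Gbp10* and *Gbp6*, described with the interferon genes.

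**Figure D2:**
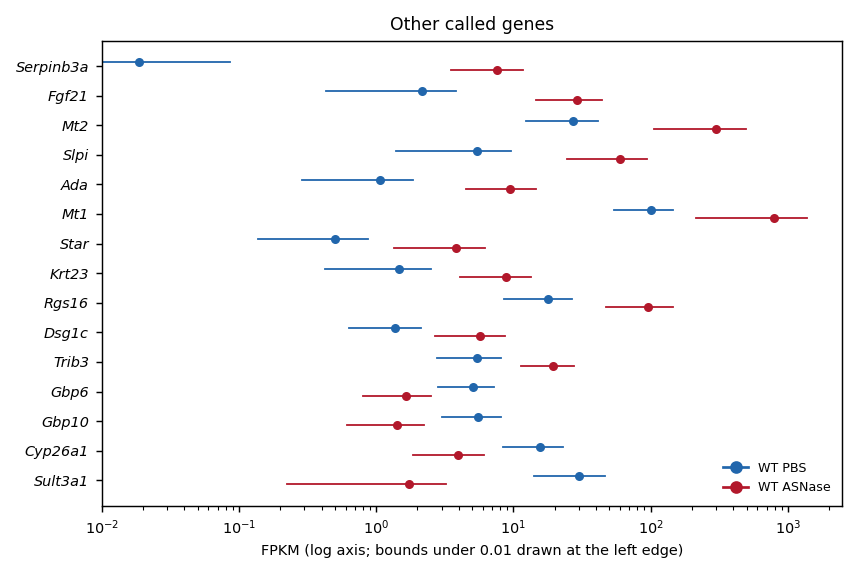
FPKM with the deposited bounds (horizontal lines, log axis, bounds under 0.01 at the left edge) for called genes that were neither kept apart nor short RNAs or pseudogenes, with *Trib3*, in WT PBS and WT ASNase livers. The intervals of each gene are separate, from *Sult3a1*, 17.5-fold lower after ASNase, to *Serpinb3a*, at 0.0187 FPKM after PBS and 7.61 FPKM after ASNase. *Fgf21* is 13.7-fold higher.

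Single genes of growth arrest and most genes of the circadian clock had higher values after ASNase. *Gadd45a*, a stress-induced partner of cell cycle kinases, rose from 1.79 FPKM (0.300 to 3.28) to 5.64 FPKM (2.17 to 9.11), and the polo-like kinase *Plk3* from 17.1 FPKM (9.88 to 24.2) to 34.9 FPKM (19.1 to 50.7). They were 2 of 16 compared growth arrest genes. The median was −0.05 over the 12 above 3 FPKM in both groups. *Cdkn1a*, the inhibitor p21, was within error at 2.13 and 4.30 FPKM. Of 17 compared clock genes 3 were beyond the combined error. Of the 16 above 3 FPKM in both groups, 15 were higher and 1 lower, with a median of 0.69. The repressor *Ciart*, listed as *Gm129*, rose from 9.27 FPKM (1.83 to 16.7) to 28.1 FPKM (13.3 to 42.9). The repressor *Per1* rose from 6.86 FPKM (3.79 to 9.94) to 13.9 FPKM (7.76 to 20.1), and the mitotic kinase *Wee1*, a clock output, from 1.98 to 4.59 FPKM. The output genes *Usp2* and *Dbp* had wide bounds and stayed within error, at 11.8 and 44.1 FPKM after PBS and 32.1 and 81.2 FPKM after ASNase. Clock genes change with the hour of the day, and the study places the injections after lights came on, with collection about the same number of hours later in all groups. Whether the hour differed between the groups was not tested.

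The stretch before *Ciart* (chr3:95882229-95882478, minus strand, RefSeq on GRCm38.p6) is shown for its E-boxes, CACGTG, the site of CLOCK and BMAL1, in capitals.
Ciart: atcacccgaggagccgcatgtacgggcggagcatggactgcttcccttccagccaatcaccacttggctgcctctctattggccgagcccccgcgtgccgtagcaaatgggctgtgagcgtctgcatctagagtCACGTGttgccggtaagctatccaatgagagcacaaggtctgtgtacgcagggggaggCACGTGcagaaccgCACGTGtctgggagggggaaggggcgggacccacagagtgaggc
It held 3 E-boxes, as many as in 0.0609% of windows, while 6.02% held at least 1. Of the 13 compared clock genes with a window, 3 held one.

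In lipid and bile acid metabolism single genes moved and the lists did not move far. The lipid droplet list had a median of 0.17 over the 18 genes above 3 FPKM in both groups, 12 higher and 6 lower. *G0s2*, an inhibitor of the triglyceride lipase ATGL, rose from 48.5 FPKM (28.4 to 68.6) to 102 FPKM (56.2 to 147), and the lipase *Lipg* from 6.16 to 13.9 FPKM (log2 1.16 ± 0.76). *Plin4* and *Cidec*, proteins of the droplet surface, stayed within error at 1.76 and 2.31 FPKM after PBS and 4.61 and 5.23 FPKM after ASNase. Fatty acid oxidation genes had a median of 0.00 over 29 genes with none beyond error, and fatty acid synthesis genes −0.13 over 18, with *Fasn* at 199 FPKM (0 to 435) and 101 FPKM (3.56 to 199). *Cyp39a1*, an oxysterol hydroxylase, rose from 11.5 FPKM (6.77 to 16.3) to 23.4 FPKM (13.5 to 33.2). It was the only 1 of 16 compared bile acid genes beyond error. *Cyp7a1*, the rate-limiting enzyme of bile acid synthesis, was at 124 FPKM with bounds of 0 and 520 after PBS and 187 FPKM with bounds of 0 and 667 after ASNase. Cholesterol synthesis genes lay lower in 23 of 25 compared genes, with a median of −0.51, yet none was beyond error. *Hmgcs1*, an early enzyme of the pathway, was at 127 FPKM (64.5 to 189) and 60.5 FPKM (33.8 to 87.2), with overlapping bounds.

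Interferon-stimulated genes lay lower after ASNase in all 29 members above 3 FPKM in both groups, with a median of −0.89, where 4631 of 9084 compared genes were lower overall. Of the 38 compared, 10 fell beyond the combined error, 2 of them called. The guanylate-binding proteins *Gbp10* and *Gbp6* fell from 5.56 FPKM (3.03 to 8.09) to 1.42 FPKM (0.611 to 2.22) and from 5.04 FPKM (2.82 to 7.27) to 1.65 FPKM (0.805 to 2.5). *Igtp*, an immunity-related GTPase, fell from 29.6 FPKM (10.7 to 48.6) to 9.28 FPKM (2.75 to 15.8). The nucleic acid sensor *Zbp1* fell from 10 to 3.05 FPKM (log2 −1.68 ± 1.04), and the GTPase *Ifi47* from 18.7 to 6.27 FPKM (log2 −1.57 ± 0.92). *Cxcl9*, a chemokine that draws T cells, fell from 8.99 to 3.21 FPKM, and the ubiquitin-like protein *Isg15* from 20.2 FPKM to 7.96 FPKM. Near-identical copies within the guanylate-binding and GTPase families share reads, so the split between their members is uncertain.

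The stretch before *Isg15* (chr4:156200819-156201068, minus strand, RefSeq on GRCm38.p6) is shown for its interferon-stimulated response elements, searched as GAAA followed after any 2 bases by GAAA, on both strands and in capitals.
Isg15: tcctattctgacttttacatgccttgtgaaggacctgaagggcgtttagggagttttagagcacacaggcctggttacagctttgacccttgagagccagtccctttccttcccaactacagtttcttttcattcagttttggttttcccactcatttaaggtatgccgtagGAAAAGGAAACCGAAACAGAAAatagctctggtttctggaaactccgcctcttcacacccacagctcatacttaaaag
It held 3 overlapping matches, as in 0.0122% of windows. At least 1 match stood in 2.98% of all windows, in 16 of the 29 compared interferon genes with a window, and in 5 of the 7 with a window among those beyond error.

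Antigen presentation genes and the markers of several immune and blood cells lay lower in the same livers. MHC class II genes, which display peptides on macrophages, dendritic cells and B cells, were lower in all 4 members above 3 FPKM in both groups, with a median of −1.22. *H2-Aa* fell from 47.8 FPKM (27.1 to 68.6) to 19.2 FPKM (10.5 to 28), *H2-Eb1* from 31.6 FPKM to 12.5 FPKM, *H2-Ab1* from 38 to 17.3 FPKM and the invariant chain *Cd74* from 108 to 50.4 FPKM. MHC class I genes were lower in 12 of 12, with a median of −0.55 and none beyond error. Of the Kupffer cell markers, the resident macrophages of liver, all 11 above 3 FPKM in both groups were lower, and the summed level of the list was 430 FPKM after PBS and 235 FPKM after ASNase. The 3 beyond error were the folate receptor *Folr2*, from 17.9 to 7.48 FPKM, the complement receptor *Vsig4*, from 29.2 to 13.7 FPKM, and the complement component *C1qa*, from 61.9 to 31.3 FPKM. *Ighm*, the IgM heavy chain and the 1 compared B cell marker, fell from 12.3 to 4.88 FPKM. The T cell markers, none of them at a level to be compared, summed to 5.68 FPKM and 2.45 FPKM. Hemoglobin and other erythroid genes were lower in 5 of 5 compared and summed to 285 and 157 FPKM, with *Hba-a1* falling from 57.4 to 24.9 FPKM. In whole liver, fewer cells of a type and less RNA per cell cannot be told apart, and the part of these cells in the interferon and class II values was not tested.

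The genes of protein folding in the endoplasmic reticulum, which a separate stress pathway induces, lay mostly lower. Of 26 compared, 22 were lower, with a median of −0.27. The chaperone partner *Sdf2l1* fell from 25 FPKM (14.3 to 35.7) to 11.2 FPKM (5.87 to 16.5), and the main chaperone *Hspa5* was within error at 341 FPKM (134 to 549) and 211 FPKM (78.7 to 343). Heat shock proteins had a median of −0.18 over 12 genes with none beyond error.

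In the growth hormone and IGF list, 1 of 18 compared genes rose and 1 fell. *Bcl6*, a transcriptional repressor, rose from 4.14 FPKM (2.0 to 6.27) to 12.5 FPKM (6.24 to 18.8), while *Dio1*, which activates thyroid hormone, fell from 97.3 FPKM (53.2 to 141) to 39.2 FPKM (20.2 to 58.1). Sex was not balanced between these groups, and its part in the values of *Bcl6* and *Dio1* was not tested. Among the glutathione and NRF2 genes, the transferase *Gsta1* rose from 13.7 FPKM (6.19 to 21.2) to 34.2 FPKM (16.8 to 51.6). The list median was −0.05 over 23 genes.

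Several drug-metabolizing genes that fell are known to be higher in females. *Cyp2c69* fell from 220 to 53.1 FPKM (log2 −2.05 ± 1.02) and *Cyp2b13* from 73.7 to 20.3 FPKM (log2 −1.86 ± 1.05). The transporter *Slc22a27* fell from 12.8 to 3.95 FPKM. With *Sult3a1* these were the 4 of 20 compared female-biased genes beyond error, and the median of that list was −0.39. The 18 compared male-biased genes had a median of −0.10 and none beyond error. *Xist*, expressed in female cells, was at 63.9 FPKM after PBS and 36.4 FPKM after ASNase. The Y-linked *Ddx3y* and *Eif2s3y* were at 5.62 and 11.8 FPKM after PBS and at 11.6 and 18.3 FPKM after ASNase. These sex chromosome levels move as the labelled sexes do. Of the 20 compared female-biased genes 7 were higher within error, such as the oxygenase *Fmo2*, at 7.78 and 14.8 FPKM. Of the 18 male-biased genes 11 were lower within error, beside 4631 of all 9084 compared genes. In the knockouts, where the number of males was the same with and without ASNase, *Cyp2c69* differed by −4.58 ± 0.91 in *Gcn2*-/- and −6.81 ± 1.25 in *Atf4*-/- livers. *Cyp2b13* differed by −0.57 ± 0.93 and −5.04 ± 1.18. In the WT livers alone, sex and treatment cannot be told apart for these genes.

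Large parts of liver metabolism and the basic cell machinery showed no gene beyond the combined error. This held for glucose metabolism (median 0.06, 19 genes), the urea cycle and amino acid breakdown (−0.06, 40 genes), iron and heme (−0.10, 18 genes) and the extracellular matrix (−0.13, 11 genes). It held as well for cytosolic ribosomal proteins (−0.01, 81 genes), mitochondrial ribosomal proteins (−0.18, 74 genes), oxidative phosphorylation (−0.18, 78 genes) and the proteasome (−0.29, 37 genes). In the latter 3 lists the small differences mostly had 1 direction, with 69 of 74, 71 of 78 and 36 of 37 genes lower. With bounds near 50% of a value, a difference of this size in a single gene was not detectable. Hepatocyte markers had a median of −0.03 over 13 compared genes. *Alb* and *Trf*, which hepatocytes make in bulk, were listed at 0 with a status other than OK in these groups and could not be compared, and the same held for 15 of 21 major urinary protein genes.

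**Figure D3:**
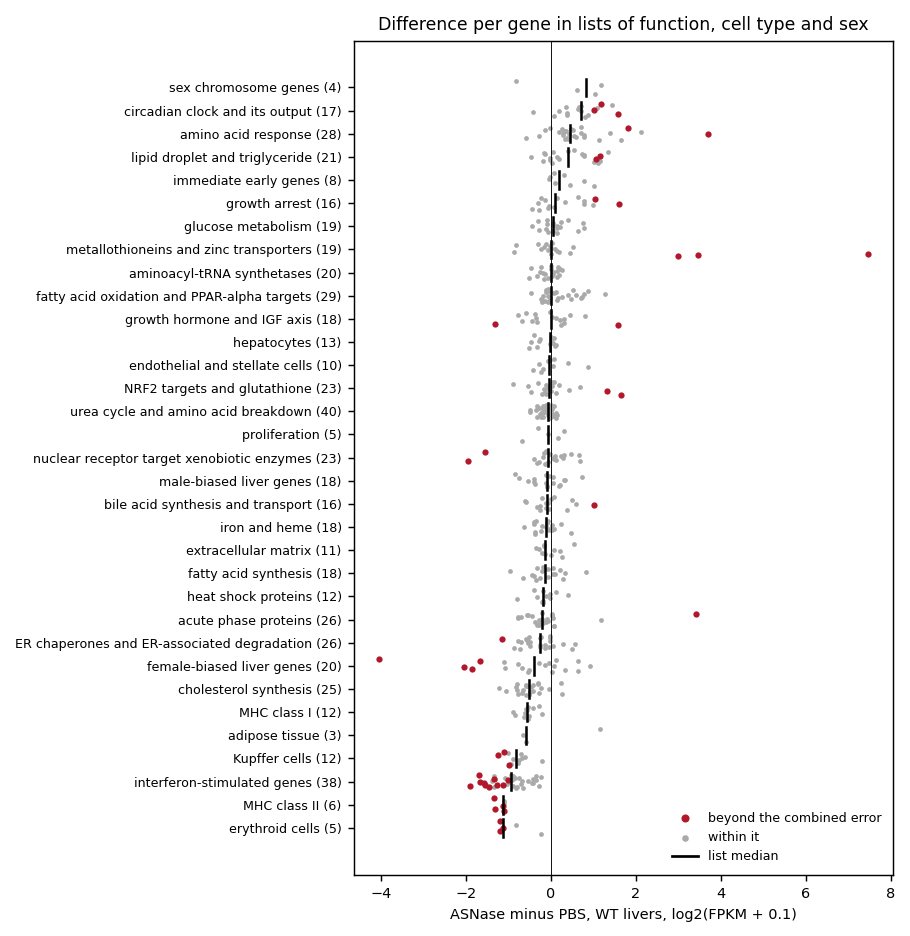
Median log2 difference, WT ASNase against WT PBS (horizontal axis), of gene lists of function, cell type and sex (black bars), with each compared member as a point, red where beyond the combined error, and the number compared after the name. Over all compared members, which include those past the 3 FPKM limit in just 1 group, MHC class II (−1.12) and interferon-stimulated genes (−0.93) lie farthest to the left and clock genes (0.71) farthest to the right among the lists of gene function.

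Genes of squamous epithelium, the layered lining of skin, mouth, esophagus and forestomach, accounted for 19 of the called genes, all higher after ASNase. Their levels after PBS were near 0, so the size of their log2 differences rests on the 0.1 FPKM added. *Krt4*, a keratin of the esophagus, was at 0.425 FPKM (0 to 0.878) after PBS and 104 FPKM (42.1 to 166) after ASNase. *Krtdap*, a secreted protein of keratinocyte differentiation, was at 0.272 FPKM (0 to 0.620) and 62.2 FPKM (28.9 to 95.4). The retroviral-like protease *Asprv1* and the cornified envelope genes *Crct1*, *Sprr3* and *Cnfn* were between 0.0522 and 0.125 FPKM after PBS and between 18.2 and 24.4 FPKM after ASNase. *Krt13*, the partner of *Krt4*, was at 0.958 FPKM (0 to 2.07) and 311 FPKM with bounds of 0 and 990, too wide to be called. Over the 37 genes of the list the summed level was 12.6 FPKM after PBS and 709 FPKM after ASNase. Outside the list 13 called genes followed it, among them the beta-defensin *Defb4*, at 0.0436 and 21.2 FPKM, several late cornified envelope genes and *Mt4*.

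Digestive enzymes of the exocrine pancreas behaved alike. *Ctrb1*, a chymotrypsinogen, was at 0.245 FPKM (0 to 0.552) after PBS and 19.7 FPKM (6.05 to 33.4) after ASNase, the trypsinogen *Prss2* at 0.0522 and 7.62 FPKM, and pancreatic lipase *Pnlip* at 0.0207 and 4.63 FPKM. The colipase *Clps* and the regenerating protein *Reg1* differed by 5.19 and 4.91 on the log2 scale. Of the list 9 members were called, and it summed to 14.5 and 106 FPKM. All but 1 of its 11 compared members passed the 3 FPKM limit through the ASNase group alone, as did 22 of the 23 compared squamous genes, so their direction was set by that limit. *Cela1*, an elastase that made up most of that sum after PBS, was at 11.8 and 14.9 FPKM. The squamous list held a similar case, the transglutaminase *Tgm1*, at 5.18 and 5.15 FPKM.

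Skeletal muscle genes were present in both groups. Their sum was 1404 FPKM after PBS and 2017 FPKM after ASNase, and 34 of the 35 genes above 3 FPKM in both were higher, with a median of 0.46. The perinatal myosin *Myh8* was at 0.267 FPKM (0.0145 to 0.519) and 10.9 FPKM (4.84 to 17.0), a pattern over the 6 groups that followed the squamous list, and the cardiac actin *Actc1* at 0.683 and 6.84 FPKM. *Myl3*, *Sln* and *Myh4* rose beyond error without being called, from 10.2, 8.91 and 3.34 FPKM to 29.0, 25.7 and 13.2 FPKM.

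Lung genes went the other way. The 3 compared members passed the 3 FPKM limit through the PBS group alone, so their direction was set by that limit. *Scgb1a1*, the secretoglobin of airway club cells, was at 104 FPKM (53.6 to 154) after PBS and 0.262 FPKM (0 to 0.622) after ASNase, and the surfactant protein *Sftpc* at 23.1 FPKM (10 to 36.2) and 0.326 FPKM (0 to 0.736). The list summed to 138 and 3.03 FPKM. Single members of these lists, such as *Cela1*, had levels in both WT groups and differed little. Whether the genes of these lists were expressed in the liver or in other tissue was not tested. With 1 value for 3 livers it cannot be seen how many livers of a group carried them.

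**Figure D4:**
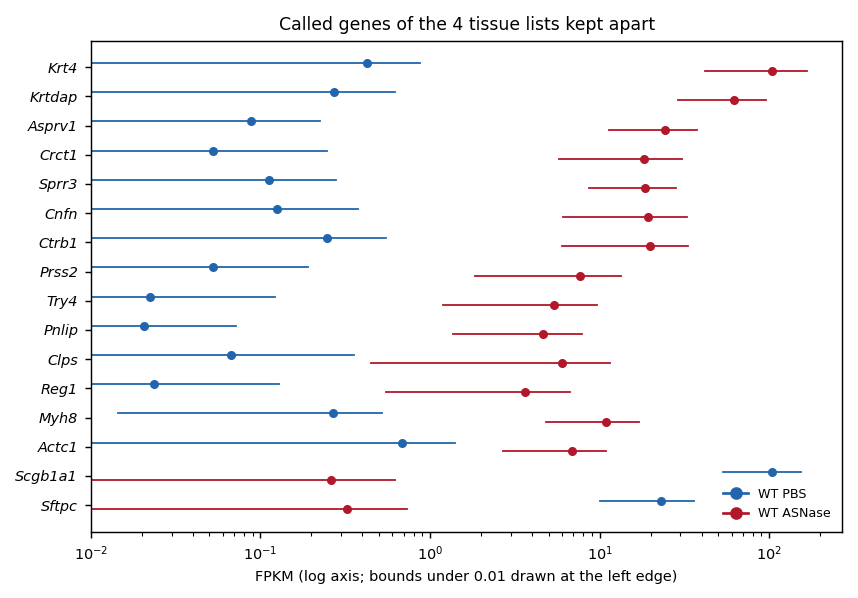
FPKM with the deposited bounds (log axis, with bounds under 0.01 drawn at the left edge) of called genes of squamous epithelium, exocrine pancreas, skeletal muscle and lung in WT PBS and WT ASNase livers. Squamous, pancreatic and muscle genes are higher after ASNase (*Krt4* 0.425 and 104 FPKM) and the 2 lung genes lower (*Scgb1a1* 104 and 0.262 FPKM).

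Genes of the adrenal cortex, which makes steroid hormones, also had higher values. The 2 compared members passed the 3 FPKM limit through the ASNase group alone, so their direction was set by that limit. *Star*, which moves cholesterol into mitochondria for steroid synthesis, was called at 0.504 FPKM (0.138 to 0.869) after PBS and 3.81 FPKM (1.36 to 6.25) after ASNase. *Akr1b7*, a reductase abundant in adrenal cortex and also on the NRF2 list, rose from 1.33 to 4.39 FPKM. The steroid hydroxylases *Cyp21a1* and *Cyp11a1*, which stayed below the 3 FPKM limit, were listed at 0.231 and 0 FPKM after PBS and at 2.02 and 1.73 FPKM after ASNase. The adrenal list summed to 2.12 and 15.7 FPKM, and the part of adrenal tissue in the value of *Star* was not tested.

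Short noncoding RNAs and pseudogenes made up 19 of the called genes. The largest rises among them were those of *AC165349.6*, from 12.1 FPKM (0 to 31.5) to 412 FPKM (370 to 455), and the small nucleolar RNA *SNORD94*, from 5.57 to 121 FPKM. The 7SK RNA, which holds a transcription elongation factor inactive, was at 13.0 and 89.5 FPKM. The pseudogene *Gm5560* went from 58.4 FPKM (57.3 to 59.5) to 0.114 FPKM, the largest fall of this kind. Transcripts this short are poorly captured by poly-A selection, and FPKM divides by their length, so a few fragments make a large value. *Gm5560* and other pseudogenes share sequence with their parent genes, which leaves their values uncertain.

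The genes nearest the limits show what the rule divides. *Ctrl*, a chymotrypsin-like enzyme, was just inside the 3 FPKM limit at 3.20 FPKM after ASNase, while the kallikrein *Klk10* was just outside at 2.99 FPKM. *Gbp6* was just inside the fold limit with a log2 difference of −1.55, and *Cxcl9* just outside at −1.46.

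The knockout responses share no groups with the WT response, and their values are set beside it without a test of any difference. *Fgf21* differed by 3.71 ± 1.0 in WT livers, by −3.25 ± 1.20 in *Gcn2*-/- livers and by 1.5 ± 1.15 in *Atf4*-/- livers, on the log2 scale. *Trib3* differed by 1.82 ± 0.76, −1.13 ± 0.84 and 5.33 ± 0.90 in the same order. *Mt1* and *Mt2* had 1 sign in all 3 strains, with *Mt2* at 3.47 ± 0.95, 3.49 ± 0.99 and 2.94 ± 0.98 and *Mt1* at 2.99 ± 0.96, 2.77 ± 1.07 and 2.74 ± 1.04. Their levels after PBS were unlike. *Mt2* was at 27.0 FPKM in WT, 306 in *Gcn2*-/- and 721 in *Atf4*-/- livers after PBS, and *Mt1* at 100, 923 and 1063 FPKM. The WT ASNase values, 300 FPKM (107 to 494) and 798 FPKM (214 to 1383), were below the PBS values of both knockouts, but their intervals overlapped in each case. For *Mt2* in *Gcn2*-/- livers after PBS the bounds were 125 and 487 FPKM. *Slpi* was higher after ASNase in each strain, by 3.42 in WT, 2.77 in *Gcn2*-/- and 1.45 in *Atf4*-/- livers. *Rgs16* had the other sign in both knockouts, with 2.43 in WT, −3.76 in *Gcn2*-/- and −0.76 in *Atf4*-/- livers. *Isg15* was lower in WT by −1.33 and in *Atf4*-/- livers by −1.38, and higher in *Gcn2*-/- livers by 3.95. *H2-Aa* was lower in each, at −1.31, −3.30 and −3.94.

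In the knockouts more genes were called than in WT livers, with 1.56% of 9218 compared genes higher and 2.13% lower in *Gcn2*-/- livers, and 2.74% of 9485 higher and 4.63% lower in *Atf4*-/- livers. Of the 11 called genes of no kept apart kind that were higher in WT livers, 4 were also higher in *Gcn2*-/- livers, 2 of them called there, and 6 were lower, 5 of them called. In *Atf4*-/- livers 8 of the 11 were higher, 1 of them called, and 3 lower, 2 of them called. The 13 called short RNAs that were higher in WT livers all had the opposite sign in *Gcn2*-/- livers, 6 of them called there. Of the 13, 2 were listed at 0 in a *Gcn2*-/- group. *AC165349.6* was at 367 FPKM in *Gcn2*-/- livers after PBS, near its 412 FPKM in WT ASNase livers, and at 25.1 FPKM after ASNase. *SNORD94* was at 116 and 30.9 FPKM in *Gcn2*-/- livers, beside 121 FPKM in WT ASNase livers. In *Atf4*-/- livers 9 of the 13 had the same sign, 1 of these called, and 3 the opposite sign, 2 of these called. The 9 called pancreas genes were higher in *Atf4*-/- livers as well, 7 of them called there. In *Gcn2*-/- livers 7 of the 9 were listed at 0 in at least 1 group.

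**Figure D5:**
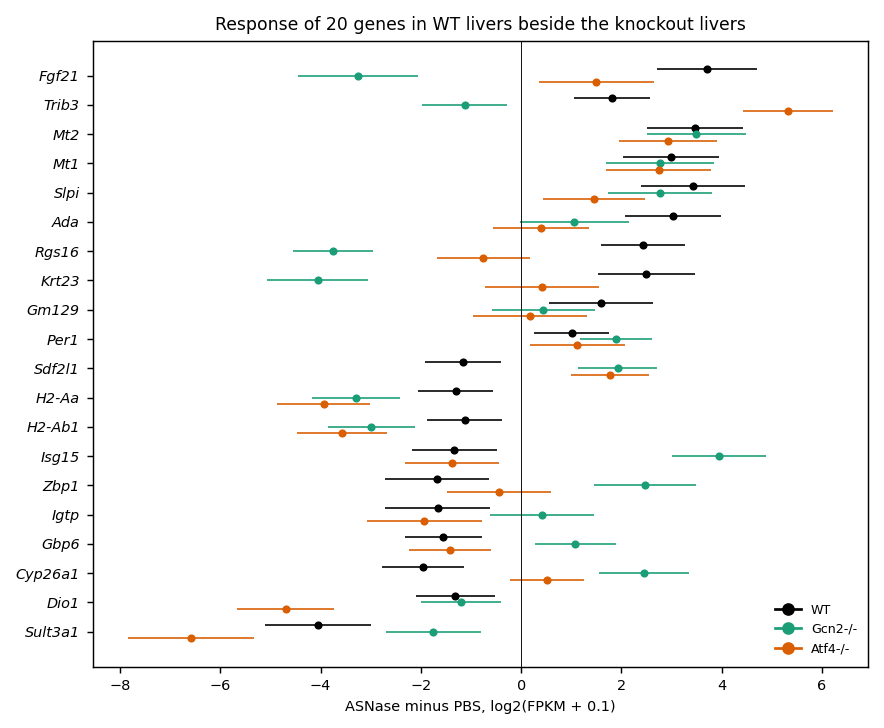
Log2 difference, ASNase against PBS (horizontal axis, with lines for the error taken from the deposited bounds), of 20 genes in WT, *Gcn2*-/- and *Atf4*-/- livers. *Mt1* and *Mt2* lie near 3 in each strain, from PBS levels that were lower in WT livers. *Fgf21* lies at 3.71 in WT, −3.25 in *Gcn2*-/- and 1.5 in *Atf4*-/- livers.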

How the data were processed

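Poly-A RNA from 18 livers was made into TruSeq libraries and sequenced on an Illumina HiSeq with single-end reads. TopHat, on Bowtie, placed the reads on mm10, and Cufflinks with Cuffmerge built the transcript models. The authors then deposited the Cuffdiff FPKM of each gene, with 1 value for the 3 libraries of a group. The bounds that the authors deposited with each value are in FPKM too, and lower bounds stop at 0. Values per library were not used here, so no SD, p-values or tests between livers are given, and the precision is that of the deposited bounds. FPKM carries no read totals, and the read totals that the study gives for its libraries were not used here.

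WT ASNase was compared with WT PBS as log2(FPKM + 0.1), which understates the change of low genes, in Python 3.11.15 with pandas 2.3.3 and numpy 2.4.6 for 9084 genes above 0 with status OK in both groups and over 3 FPKM in at least 1. The limits for calls are those given with the results. Gene identifiers were matched to GENCODE M21 on GRCm38, and promoters to RefSeq by symbol. The 49 gene lists, the 4 kept apart tissues and the comparison were chosen with earlier results of these data known. Genes were named by a fixed rule, namely *Eif2ak4* and *Atf4*, up to 6 members of each list called or beyond the combined error with the largest difference, up to 6 called members of each kept apart list, the 20 called genes outside those lists with the largest difference, and the genes nearest the limits. Other called genes, and members within error, were named after their values were seen. The calling script was tested on simulated data. Alternatives tried were other pseudocounts, FPKM and fold limits, the combined error in place of separate intervals, scaling by the median ratio, and leaving out groups of genes. The values of 1 called gene, which is counted, are not reported here.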

Additional observations from a re-analysis of the deposited data

How the results depend on the processing

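The count of 80 called genes (69 higher, 11 lower) moved by over 1.5 times under 5 alternatives. It was 17 (14 higher, 3 lower) with FPKM over 3 in both groups, 124 (109 and 15) with no FPKM limit, 179 (138 and 41) with genes listed at 0 included, 48 (39 and 9) without the kept apart lists, and 37 (29 and 8) when genes following those lists were left out. Of the 151 genes beyond the combined error (98 higher, 53 lower), 75 (34 higher, 41 lower) were left with FPKM over 3 in both groups, and 250 (167 and 83) were found with genes listed at 0 included. With the stricter limit, genes beyond error were thus more often lower than higher. It leaves out every gene that was near 0 in 1 group. The other alternatives gave 59 to 110 called genes. Scaling by the median ratio of 0.99 gave 82 called genes and turned the sign of the median of the ribosomal proteins, −0.01, to 0.01. Over the named genes, 1483 recomputed values kept direction and side of the limits. For most of them this was fixed, because only the scaling changed FPKM values or bounds. Genes no longer compared under an alternative were not counted, and the fold and error alternatives were not recomputed for single genes. The count is therefore no measure of how stable these genes are. *Ctss* (−0.91) and *Irgm1* (−0.999) were no longer beyond error under the scaling, and *Klk10* entered with 3 alternatives. No paired analysis was possible because the table holds 1 value for each group, and for the same reason leaving out a replicate could not be run.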

Other observations

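Further protein-coding genes beyond the combined error belong to no list and were chosen after their values were seen. Higher after ASNase were the transcription factor *Klf10* (log2 difference 1.23 ± 0.72), the proprotein convertase *Pcsk4* (1.30 ± 0.81), the glycosyltransferase *Extl1* (1.48 ± 1.28), the gap junction protein *Gja1* (2.25-fold) and the cornified envelope protein *Ppl* (1.98-fold). Lower after ASNase were the secreted peptide gene *Enho* (2.12-fold), the vasopressin receptor *Avpr1a* (2.01-fold), the ectonucleotidase *Nt5e* (2.2-fold), the fatty acid binding protein *Fabp5* (2.09-fold), the ligand *Efna1* (2.17-fold) and the tubulin *Tubb2a* (2.15-fold). Lysozyme *Lyz2* and the protease *Ctss*, both abundant in macrophages, fell from 84.8 to 41.0 FPKM and by 1.91-fold. These are single differences between 2 group values, each little larger than its error.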
